A study of Rattus norvegicus with 12 samples.

Results

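The genes described here carry class I antigen presentation by the rat major histocompatibility complex (MHC), which is named RT1. They comprised every gene whose symbol starts with RT1-, leaving out the class II genes RT1-B and RT1-D, together with 11 listed genes that supply, cut or load peptides (B2m, Tap1, Tap2, Tapbp, Psmb8, Psmb9, Psmb10, Psme1, Psme2, Erap1 and Nlrc5). On the array, 49 probes carried 42 of these symbols, 33 of them RT1 genes and 9 of them listed genes, while no probe was matched to Erap1 or Nlrc5. The most intense probe stood for each gene and was kept where it exceeded background clearly in all 3 rats of 1 group or more. This left 35 genes of the 11331 gene symbols detected in all, namely 26 RT1 genes and the 9 listed genes. The RT1 genes that did not pass were RT1-CE6, RT1-Ha, RT1-M1-2, RT1-M1-4, RT1-M1-5, RT1-M4 and RT1-M5. Of the 35 genes, 33 were well above background on all 12 arrays, and the exceptions were RT1-CE10 and RT1-T24-2.

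Lung RNA from the left upper lobe was hybridised to single-colour Agilent rat arrays, 1 array per rat, with 3 rats in each of 4 groups. All were male Sprague–Dawley rats, an outbred stock, aged 8 to 12 weeks. The CS + LPS group breathed cigarette smoke (CS) up to day 30 and received lipopolysaccharide (LPS), a bacterial cell wall component, into the trachea on days 5 and 19, which serves as a model of chronic obstructive pulmonary disease. The CS + LPS + NaHS group (the NaHS group) had the same exposure and intraperitoneal injections of NaHS, a donor of hydrogen sulfide, and the CS + LPS + PPG group (the PPG group) had the same exposure and intraperitoneal injections of propargylglycine, an inhibitor of CTH, an enzyme that forms hydrogen sulfide. Control rats breathed air and were given saline in place of smoke and LPS. Lungs were taken 24 hours after the last exposure. No group received NaHS or PPG without smoke and LPS, so their effects could be read only on top of that exposure.

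Class I molecules are heavy chains joined to beta 2 microglobulin that show peptides from inside the cell to CD8 T cells and to natural killer (NK) cells. The peptides are cut by the proteasome, and under interferon the catalytic subunits Psmb8, Psmb9 and Psmb10 replace constitutive ones to form the immunoproteasome, while Psme1 and Psme2 build its PA28 cap. Tap1 and Tap2 form the pump that carries peptides into the endoplasmic reticulum, and Tapbp (tapasin) holds the pump to the waiting heavy chain. In the rat, RT1-A genes encode the classical class I molecules, and the RT1-CE, RT1-N, RT1-S, RT1-T and RT1-M genes encode the largely nonclassical ones.

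Values are log2 processed signals scaled so that every array had the same 75th percentile, so a difference of 1 is a 2-fold change. The unscaled 75th percentile ranged from 1430 to 2222 on 11 arrays and was 856 in control rat 3, whose correlation with other arrays was 0.936 to 0.957 and which held the lowest value of 27.9% and the highest value of 31.1% of all 21239 detected probes. The CS + LPS arrays and control rat 3 shared 1 slide and the other 8 arrays shared the other slide. A difference between CS + LPS and the NaHS or PPG group is thus also a difference between slides, and control rat 3 alone links them. No spot was saturated. The alveolar type 2 cell markers (surfactant genes and others) were abundant, with a summed signal of 906360 to 1329561 over the arrays. RT1 genes are near copies of one another, and a probe named for one of them may also have read others.

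**Figure D1:**
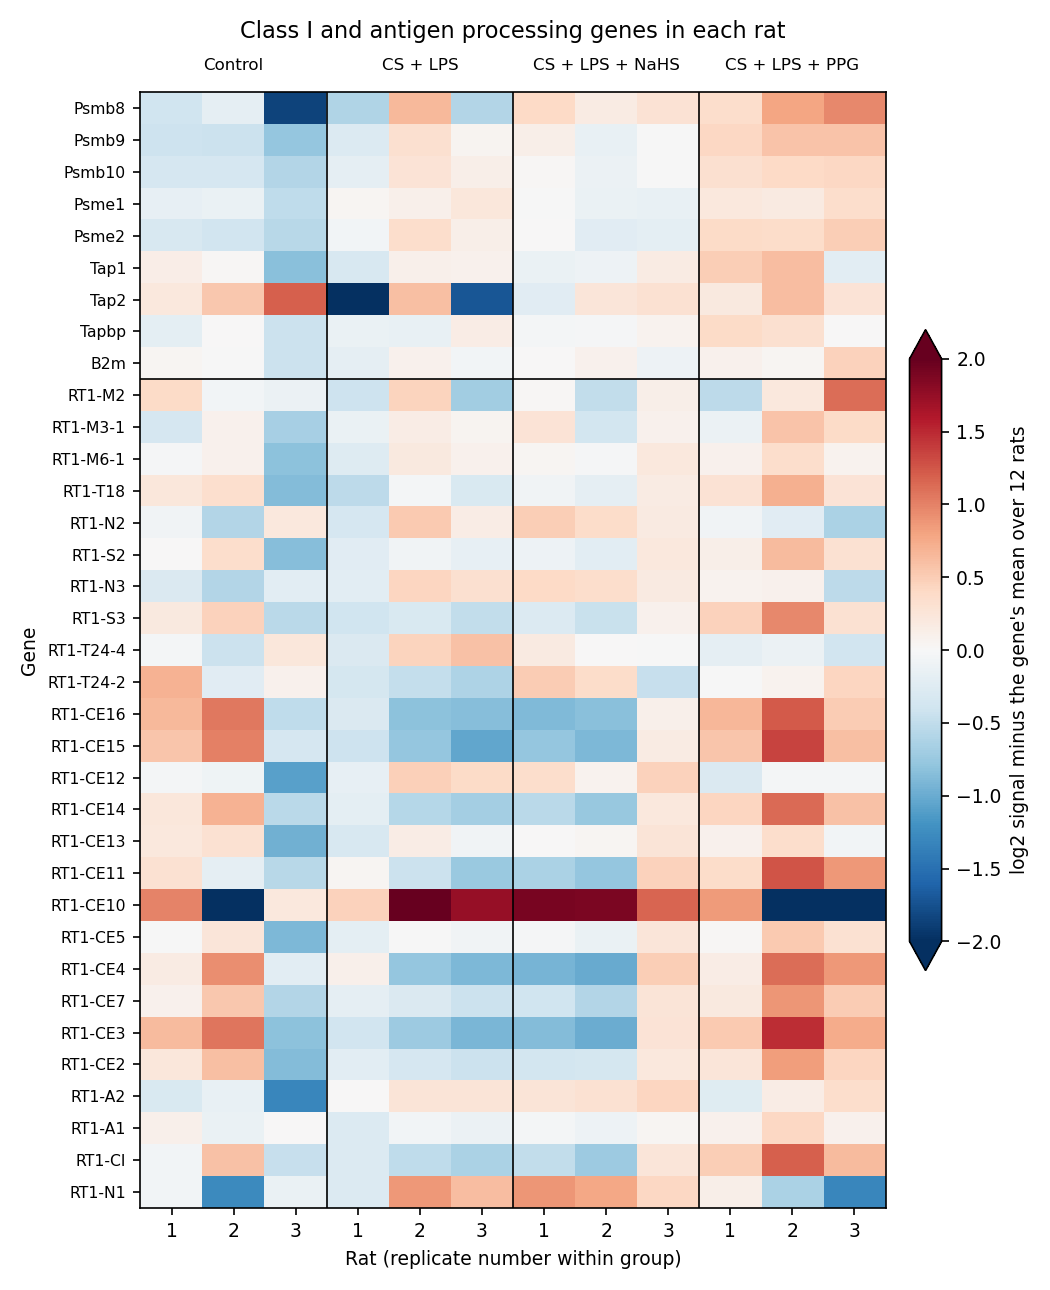
Log2 signal of the 35 genes in each of the 12 rats minus the mean of the gene over all rats, with colours limited at 2 log2 units on either side. The 9 listed genes stand on top and the 26 RT1 genes below in the order of the genes on chromosome 20. Control rat 3 was the lowest rat in 8 of the 9 listed genes, and PPG rat 2 was the highest rat in 17 of the 26 RT1 genes.

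The PPG group had the highest mean of the 4 groups in 8 of the 9 listed genes and in 18 of the 26 RT1 genes. The NaHS group was highest in 6 RT1 genes, and the CS + LPS group and the control group in 1 RT1 gene each. Single rats weighed heavily in this order, as the plot of the 35 genes by rat shows. PPG rat 2 held the highest value in 17 of the 26 RT1 genes (65.4%), against 4.29% of all probes, and PPG rat 3 held it in 5 of the 9 listed genes (55.6%), against 16.6% of all probes. Control rat 3 was lowest in 10 RT1 genes (38.5%) and in 8 listed genes (88.9%).

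Compared with the control group, 3 of the 5 genes of the immunoproteasome and its cap were called higher in the PPG group. Psmb9, Psme2 and Psmb10 rose by limma with an adjusted p under 0.05, which made 3 of the 35 genes called higher, against 2.61% of all probes called higher and 4.64% called in either direction in this comparison. None of the 35 genes was called lower. All 3 belong to the 9 listed genes, while 0 of the 26 RT1 genes were called by limma. Of the RT1 genes, 4 had an unadjusted p under 0.05, beside 6229 of all 21239 probes. The methods' t-test called 0 of all probes after adjustment, and so 0 RT1 genes. In bulk tissue, more cells of a type and more RNA per cell cannot be told apart. With 3 rats against 3, an exact permutation test cannot go below a p of 0.1.

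The promoters of the 3 called genes are shown because these genes moved together while they lie on different chromosomes. Each sequence is the 250 bases before the RefSeq gene start in GRCr8, read along the strand of the gene, in lower case throughout since no site is marked.
Psmb9: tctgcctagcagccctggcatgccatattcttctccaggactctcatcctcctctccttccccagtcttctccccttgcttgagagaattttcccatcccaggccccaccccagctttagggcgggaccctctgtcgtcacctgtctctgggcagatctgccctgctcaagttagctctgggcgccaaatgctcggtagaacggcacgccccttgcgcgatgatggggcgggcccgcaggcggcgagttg
Psmb10: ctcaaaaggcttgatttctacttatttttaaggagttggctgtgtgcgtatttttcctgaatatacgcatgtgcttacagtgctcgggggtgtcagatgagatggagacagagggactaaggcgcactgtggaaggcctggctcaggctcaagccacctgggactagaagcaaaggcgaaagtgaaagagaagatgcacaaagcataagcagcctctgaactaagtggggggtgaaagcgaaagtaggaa
Psme2: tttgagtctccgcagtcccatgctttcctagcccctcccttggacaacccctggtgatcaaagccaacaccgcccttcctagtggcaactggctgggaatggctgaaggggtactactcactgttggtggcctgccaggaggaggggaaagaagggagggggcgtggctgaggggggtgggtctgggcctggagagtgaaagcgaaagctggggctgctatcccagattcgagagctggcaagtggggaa
The window of Psmb9 lies on chromosome 20 (chr20:4668750-4668999, plus strand), that of Psmb10 on chromosome 19 (chr19:50743293-50743542, minus strand) and that of Psme2 on chromosome 15 (chr15:33052752-33053001, minus strand). The GC content of these windows was 61.6% for Psmb9, 48.4% for Psmb10 and 60.4% for Psme2, and the numbers of CG dinucleotides were 12, 6 and 5, beside medians of 51.2% and 5 over the 33469 promoters in the RefSeq table. The windows of the 3 genes thus ranged from below to above the middle of all promoters, with a lower GC content found in 78.2%, 39.2% and 75.6% of promoters.

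Psmb9 encodes the beta 1i subunit of the immunoproteasome. Its log2 signal was 13.35, 13.33 and 12.99 in the control rats, 13.48, 14.07 and 13.81 with CS + LPS, 13.88, 13.61 and 13.74 with NaHS, and 14.18, 14.32 and 14.32 with PPG. All PPG rats lay above all 9 other rats, and all exposed rats lay above all controls. The mean was 14.27 ± 0.08 (SD, n = 3) with PPG and 13.22 ± 0.20 in control, a difference of 1.05 (SE 0.17), or 2.07-fold, with an adjusted p of 0.0206 by limma.

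Psmb10 encodes the beta 2i subunit. Its values were 14.24, 14.24 and 13.99 in control, 14.40, 14.85 and 14.70 with CS + LPS, 14.61, 14.46 and 14.57 with NaHS, and 14.90, 14.98 and 15.00 with PPG. Here too every PPG rat lay above the 9 others, and the difference from control was 0.80 (SE 0.14, adjusted p 0.0225 by limma). Over the 12 arrays Psmb10 followed Psmb9 with a Pearson's r of 0.994, the highest of any pair among the listed genes, which is a description over rats that share treatment and slide.

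Psme2 encodes the beta chain of the PA28 cap, which opens the proteasome to substrate. It lay at 14.85, 14.79 and 14.62 in control, at 15.11, 15.53 and 15.29 with CS + LPS, at 15.18, 14.95 and 14.97 with NaHS, and at 15.55, 15.53 and 15.67 with PPG. The PPG rats were again the highest, although PPG rat 2 and CS + LPS rat 2 were almost level, and the difference between PPG and control was 0.83 (SE 0.14, adjusted p 0.0211 by limma). Psme1, the alpha chain of the same cap, was 15.36, 15.40 and 15.01 in control and 15.73, 15.71 and 15.87 with PPG, a difference of 0.51 (SE 0.13) that missed the threshold with an adjusted p of 0.0532.

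Psmb8 encodes the beta 5i subunit. It was 12.71, 12.93 and 11.25 in control, 12.50, 13.75 and 12.52 with CS + LPS, 13.49, 13.26 and 13.39 with NaHS, and 13.46, 13.90 and 14.07 with PPG. Control rat 3 lay far under every other rat, and PPG and control did not overlap. The difference was 1.51 (SE 0.43), or 2.85-fold, with an adjusted p of 0.0667 by limma. A gene is called differentially expressed (DE) here where its fold was at least 2, with an unadjusted p of limma under 0.05. Psmb8 and Psmb9 were DE, which made 2 of the 35 genes, both higher, against 2.32% of all probes DE higher and 4.38% DE in either direction. With the p of the methods' t-test 1 gene was DE, against 2.34% of all probes. Without control rat 3 the differences were 0.99 for Psmb8 and 0.93 for Psmb9, under the 2-fold line, and neither was DE.

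**Figure D2:**
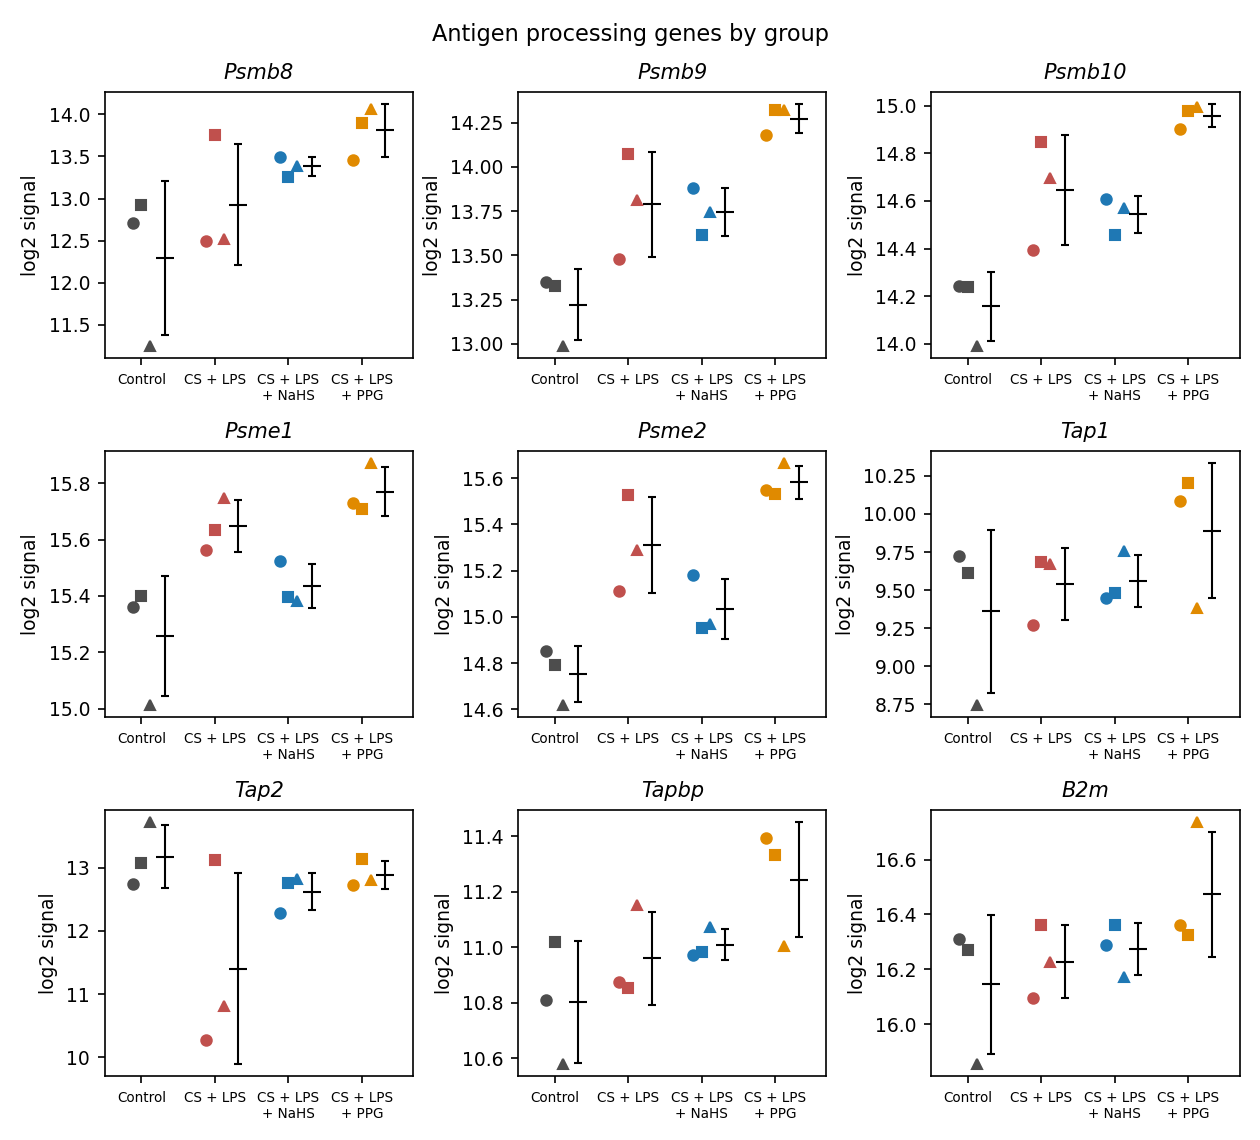
Log2 signal of the 9 listed genes by group, with 1 point per rat (circle, square and triangle for replicates 1, 2 and 3) and the mean ± SD of the 3 rats beside them in black. All PPG points of Psmb9 and Psmb10 lie above all points of the other groups, while Tap2 has 2 CS + LPS rats far under the rest, at 10.28 and 10.82.

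The 3 calls held within the slide that carries the PPG rats and control rats 1 and 2. There the differences were 0.93 for Psmb9 (adjusted p 0.0188), 0.72 for Psmb10 (0.0209) and 0.76 for Psme2 (0.0215), and Psmb8 was also called at 0.99 (0.0341), against 5.03% of all probes called. With the slide as a block in all arrays, the adjusted p by limma was 0.0272 for Psmb9, 0.0288 for Psme2 and 0.0317 for Psmb10. When only the arrays of both groups were fitted, and by the methods' t-test after adjustment, 0 of all 21239 probes were called, and so 0 of the 35 genes. With no filter on dim probes 1 gene was called, against 0.366% of all probes. The calls were also lost without any 1 of the PPG rats. The adjusted p of the 3 genes was then 0.0675 to 0.0757 without PPG rat 1, 0.0715 to 0.0790 without PPG rat 2 and 0.0732 to 0.0809 without PPG rat 3, and their differences stayed between 0.78 and 1.10. In those fits the calls over all probes in this comparison also fell, from 986 to 12, 22 and 15. Without control rat 2, Psmb8 (adjusted p 0.0437) and Psme1 (0.0447) were called as well, which made 5 of the 35 genes, against 7.84% of all probes, and 4 were DE, against 7.54%.

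The other loading genes did not pass the test against control. B2m, the light chain of every class I molecule, was 16.31, 16.27 and 15.85 in control and 16.36, 16.32 and 16.74 with PPG, a difference of 0.33 (adjusted p 0.205). Tapbp was 10.81, 11.02 and 10.58 in control and 11.39, 11.33 and 11.01 with PPG, a difference of 0.44 (adjusted p 0.103). Tap1 was 9.72, 9.61 and 8.75 in control and 10.09, 10.20 and 9.38 with PPG, a difference of 0.53 (adjusted p 0.231). For Tapbp and Tap1 the lowest PPG rat was PPG rat 3, which lay inside the control range, whereas for B2m that same rat was the highest of all. Tap2 was the only listed gene with a lower mean in PPG than in control (−0.29, adjusted p 0.766). Over the 9 listed genes the median difference was 0.53, with 8 of 9 higher, beside a median of −0.01 over all probes.

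Tap2, Psmb8, Tap1 and Psmb9 are neighbours in the RefSeq gene order of chromosome 20, at places 469 to 472 of the order, and they did not share 1 pattern. Tap2 was 12.74, 13.07 and 13.72 in control, 10.28, 13.12 and 10.82 with CS + LPS, 12.29, 12.76 and 12.82 with NaHS, and 12.72, 13.14 and 12.80 with PPG. CS + LPS rats 1 and 3 were far under all others, and CS + LPS rat 2 was among the controls. The difference between CS + LPS and control was −1.77 (adjusted p 0.112 by limma), which was DE. Without CS + LPS rat 2 it was −2.63 with an adjusted p of 0.0102, and the difference of PPG from CS + LPS was then 2.34 with an adjusted p of 0.00770. The call for Tap2 thus turned on 1 rat.

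The RT1 heavy chains leaned higher in PPG than in control, but none was called. Of the 26 RT1 genes, 21 had a higher mean in PPG, with a median difference of 0.43, which was 0.14 within the slide that carries the PPG rats and control rats 1 and 2. The groups did not overlap in 7 of the 35 genes, against 33.2% of all probes, and 6 of these 7 were listed genes. The only RT1 gene among them was RT1-CE11, a nonclassical heavy chain gene. RT1-CE11 was 12.66, 12.18 and 11.81 in control and 12.73, 13.62 and 13.23 with PPG, a difference of 0.98 (SE 0.36, adjusted p 0.112), the lowest adjusted p of any RT1 gene in this comparison.

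Compared with the control group, the CS + LPS group had 0 of 35 genes called by limma, against 2.02% of all probes called. There were 11 genes with an unadjusted p under 0.05, 7 of them higher, beside 5360 of all 21239 probes, 2538 of them higher. The methods' t-test called 0 genes after adjustment and only 1 of all probes. Psme2 came nearest, at 15.31 ± 0.21 with CS + LPS and 14.75 ± 0.12 in control, a difference of 0.56 (adjusted p 0.0658). Psmb10 differed by 0.49 (adjusted p 0.0856), Psmb9 by 0.57 (0.0924) and Psme1 by 0.39 (0.121). For these 4 genes all CS + LPS rats lay above all control rats. The groups did not overlap in 8 of the 35 genes, 6 higher and 2 lower with CS + LPS, against 25.2% of all probes in either direction. The listed genes had a median difference of 0.39 with 8 of 9 higher, and the RT1 genes a median of −0.16 with 12 of 26 higher.

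DE by the fold rule were 3 of the 35 genes, all lower with CS + LPS (Tap2, RT1-CE15 and RT1-CE16), against 2.91% of all probes DE lower and 4.56% in either direction. RT1-CE15 was 9.47, 9.92 and 8.58 in control and 8.50, 8.14 and 7.87 with CS + LPS, a difference of −1.15 (adjusted p 0.114). RT1-CE16 was 15.16, 15.55 and 13.99 in control and 14.22, 13.68 and 13.65 with CS + LPS, a difference of −1.05 (adjusted p 0.145). In both, control rat 3 was close to the CS + LPS rats, the arrays with which it shares a slide, and without it the differences were −1.52 and −1.51. RT1-CE3 and RT1-N1 then also became DE, at −1.52 and 1.07, which made 5 DE genes, against 2.88% of all probes. Without control rat 2 only 1 gene was DE, against 8.43% of all probes.

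With the slide as a block, where this comparison rests on control rat 3 alone, 12 of the 35 genes were called, against 41.6% of all probes. The genes higher were Psmb8, Psmb9, Psmb10, Psme1, Psme2, RT1-A2, RT1-CE5, RT1-CE12, RT1-CE13, RT1-M6-1 and RT1-S2, and Tap2 was lower. Within that slide alone 2 genes were called, RT1-A2 (1.48, adjusted p 0.0240) and RT1-CE12 (1.32, adjusted p 0.0440), against 18.4% of all probes called. RT1-A2, a classical heavy chain gene, was 14.36, 14.51 and 13.34 in control and 14.66, 14.92 and 14.91 with CS + LPS. Control rat 3 was the lowest of all 12 rats, and slide and group cannot be told apart for the rest of this contrast. The median of the RT1 genes turned from −0.16 to 0.23 with the block.

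Compared with the control group, the NaHS group also had 0 genes called by limma, against 0.0989% of all probes. An unadjusted p under 0.05 was found in 9 genes, beside 3638 of all 21239 probes. The methods' t-test called 0 of all probes after adjustment, and so 0 genes. DE were Psmb8 (1.09, adjusted p 0.257) and RT1-N1 (1.19, adjusted p 0.218), 2 of the 35 genes, both higher, against 1.3% of all probes DE higher and 2.67% in either direction. RT1-N1, a nonclassical heavy chain gene, was 10.08, 8.86 and 10.003 in control and 11.03, 10.92 and 10.56 with NaHS, and the groups did not overlap. Non-overlap held for 9 of the 35 genes, against 24.8% of all probes. The RT1 genes had a median difference of 0.03, or −0.19 within the slide of the NaHS rats, and the listed genes had 0.21 with 8 of 9 higher.

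Within that slide the difference of Psmb8 was 0.56 and it was not DE, while RT1-CE15 (−1.28), RT1-CE16 (−1.39) and RT1-CE3 (−1.38) were DE lower and RT1-N1 (1.36) was DE higher, against 1.97% of all probes. Leaving out single rats moved the count of DE genes. It was 4 without control rat 1 (4.58% of all probes DE) or control rat 3 (1.94%). It was 0 without NaHS rat 1 (2.37%) and 5 without NaHS rat 3 (2.73%). Between NaHS and CS + LPS, 0 of 35 genes were called (0.593% of all probes) and 0 were DE (1.7% of all probes). None had an unadjusted p under 0.05, beside 2054 of all 21239 probes. The groups did not overlap in 1 gene, against 20.5% of all probes, and the methods' t-test called 0 genes and only 1 of all probes. With the slide as a block Psme1, RT1-A2, RT1-CE5 and RT1-CE13 were called lower with NaHS, 4 of the 35 genes against 23.0% of all probes called, and the median of the RT1 genes turned from 0.12 to −0.75. Without CS + LPS rat 2, 1 gene was called and DE, Tap2 (2.08, adjusted p 0.0203), against 0.626% of all probes called.

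Between the PPG group and the other exposed groups, the DE genes were mostly RT1-CE genes with higher values in PPG, and none passed an adjusted p. Against CS + LPS, 0 of 35 genes were called by limma (0.523% of all probes), and 10 were DE, against 2.05% of all probes. An unadjusted p under 0.05 was found in 18 genes, beside 2232 of all 21239 probes. The methods' t-test called 0 genes and only 1 of all probes. The 8 DE genes with higher values in PPG (1.78% of all probes) were RT1-CE3, RT1-CE4, RT1-CE11, RT1-CE14, RT1-CE15, RT1-CE16, RT1-Cl and Tap2, and the 2 with lower values (0.268% of all probes) were RT1-CE10 and RT1-N1. Against NaHS, where all rats shared a slide, 0 of 21239 probes were called, a share of 0%, and with them 0 of the 35 genes. The methods' t-test also called 0 of all probes. At an unadjusted p under 0.05 there were 16 of the 35 genes and 1857 of all probes. DE were 9 of the 35 genes, against 0.523% of all probes, and they were the same genes without Tap2, 7 higher (0.32% of all probes) and 2 lower (0.202%). All 9 had an adjusted p of 0.563. The comparisons share the PPG rats and are not independent.

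The promoters of RT1-CE16 and RT1-CE10 are shown because both genes lie on chromosome 20 and differed in opposite directions between PPG and the other exposed groups. They are again the 250 bases before the RefSeq start in GRCr8, in lower case with no site marked.
RT1-CE16: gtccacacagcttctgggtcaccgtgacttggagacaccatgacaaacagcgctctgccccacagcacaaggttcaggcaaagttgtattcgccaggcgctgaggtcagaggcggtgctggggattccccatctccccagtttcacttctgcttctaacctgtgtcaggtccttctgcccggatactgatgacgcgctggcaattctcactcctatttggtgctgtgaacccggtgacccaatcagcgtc
RT1-CE10: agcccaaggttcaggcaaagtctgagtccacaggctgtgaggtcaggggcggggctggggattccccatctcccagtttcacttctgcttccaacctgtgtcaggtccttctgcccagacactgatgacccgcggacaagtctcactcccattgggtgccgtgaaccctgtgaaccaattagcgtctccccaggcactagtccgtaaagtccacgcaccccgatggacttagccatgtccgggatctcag
Both windows lie on the minus strand of chromosome 20, at chr20:3265444-3265693 and chr20:3384980-3385229. Their GC content was 56.4% and 58.4%, with 10 and 9 CG dinucleotides, beside a median GC content of 52.8% over the 21 promoters of RT1 genes of the set found in the table.

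RT1-CE16 was 15.16, 15.55 and 13.99 in control, 14.22, 13.68 and 13.65 with CS + LPS, 13.62, 13.66 and 14.61 with NaHS, and 15.16, 15.73 and 15.00 with PPG. All PPG rats lay above all CS + LPS and NaHS rats, and control rats 1 and 2 lay among the PPG rats. The difference was 1.45 (SE 0.40, adjusted p 0.194) against CS + LPS and 1.33 (SE 0.40, adjusted p 0.563) against NaHS.

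RT1-CE3 had the same order, with 10.86, 11.29 and 9.40 in control, 9.85, 9.50 and 9.32 with CS + LPS, 9.36, 9.23 and 10.50 with NaHS, and 10.76, 11.70 and 10.97 with PPG. NaHS rat 3 was the highest of the NaHS rats in this gene, as in RT1-CE16. PPG minus CS + LPS was 1.58 (SE 0.48, adjusted p 0.247), and PPG minus NaHS was 1.45 (SE 0.48). RT1-CE15 was 8.14, 8.02 and 9.08 with NaHS and 9.48, 10.27 and 9.52 with PPG, and PPG was higher by 1.58 against CS + LPS (adjusted p 0.132) and by 1.34 against NaHS, without overlap in either.

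RT1-CE14 was 14.63, 15.09 and 13.85 in control, 14.20, 13.82 and 13.72 with CS + LPS, 13.86, 13.64 and 14.60 with NaHS, and 14.83, 15.52 and 14.98 with PPG. RT1-Cl was 12.75, 13.39 and 12.34 in control, 12.54, 12.30 and 12.18 with CS + LPS, 12.32, 12.08 and 13.05 with NaHS, and 13.31, 14.00 and 13.45 with PPG. In both, every PPG rat lay above every CS + LPS and NaHS rat. The differences were 1.20 and 1.08 for RT1-CE14 and 1.25 (adjusted p 0.140) and 1.10 for RT1-Cl, against CS + LPS and NaHS in turn.

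RT1-CE4 was 12.26, 13.03 and 11.88 in control, 12.19, 11.32 and 11.20 with CS + LPS, 11.16, 11.09 and 12.59 with NaHS, and 12.25, 13.21 and 12.96 with PPG. PPG rat 1 lay under NaHS rat 3, so PPG and NaHS overlapped, and the differences were 1.23 against CS + LPS and 1.19 against NaHS. RT1-CE11 was 12.39, 11.92 and 11.62 with CS + LPS and 11.72, 11.59 and 12.81 with NaHS. It overlapped with NaHS in the same way, with differences of 1.21 and 1.15. Across the 12 RT1-CE genes the median difference of PPG was 1.01 against CS + LPS and 0.92 against NaHS, beside 0.02 and −0.01 over all probes.

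**Figure D3:**
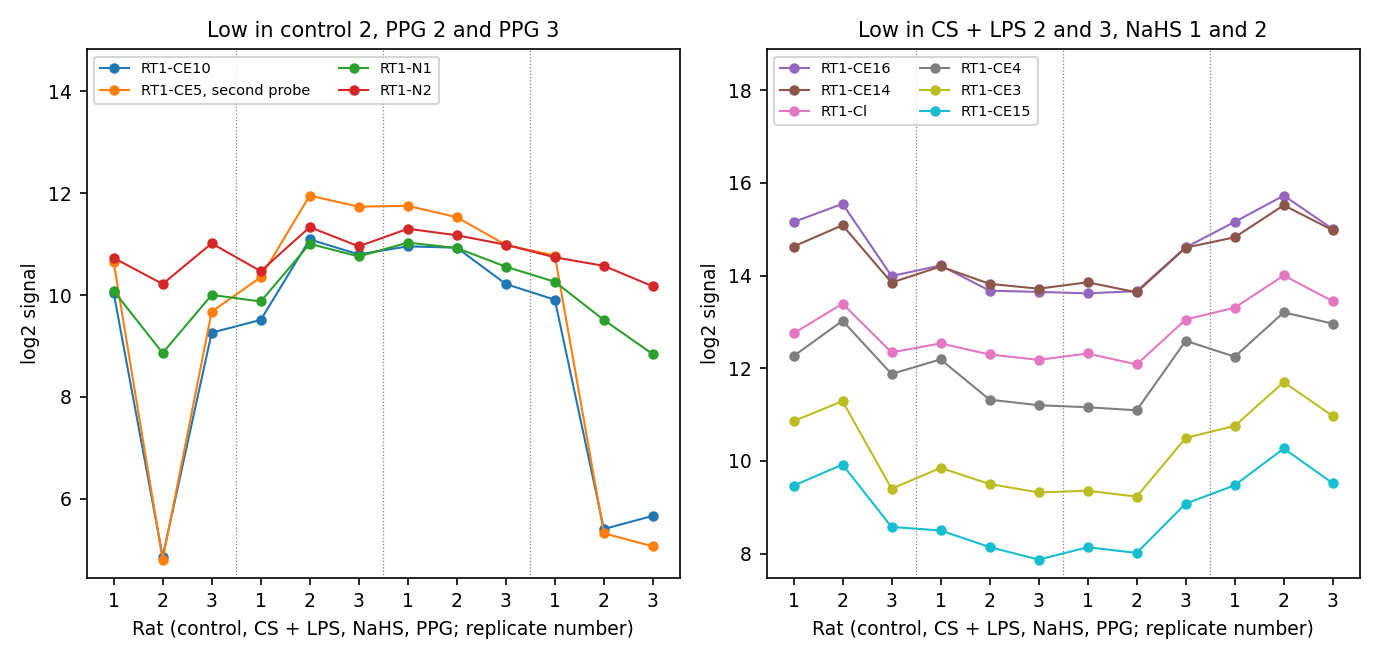
Log2 signal of RT1 probes in each rat, in the order control, CS + LPS, NaHS and PPG with replicates 1 to 3. A line joins the values of 1 probe, and levels of different probes are not comparable. The probes on the left have low values in control rat 2 and PPG rats 2 and 3, and the probes on the right have low values in CS + LPS rats 2 and 3 and NaHS rats 1 and 2. The split is not clean for every probe. RT1-N2 is also low in CS + LPS rat 1 (10.47). Control rat 3 is also low in RT1-CE3 (9.40), RT1-CE14 (13.85), RT1-CE15 (8.58), RT1-CE16 (13.99) and RT1-Cl (12.34). CS + LPS rat 1 lies toward the low rats in RT1-CE3 (9.85), RT1-CE15 (8.50) and RT1-CE16 (14.22).

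A smaller set of RT1 probes ran the other way. RT1-CE10 was 10.05, 4.86 and 9.26 in control, 9.51, 11.09 and 10.80 with CS + LPS, 10.96, 10.93 and 10.22 with NaHS, and 9.91, 5.40 and 5.66 with PPG. Control rat 2 and PPG rats 2 and 3 lay far under every other rat, so the values fell into 2 separate levels that cut across the groups, and control rat 2 was not well above background. The difference was −3.48 (SE 1.37, adjusted p 0.403) against CS + LPS and −3.71 (SE 1.37, adjusted p 0.563) against NaHS. Against control it was −1.06 (adjusted p 0.624), since both groups held rats of either level.

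A second probe of RT1-CE5 split the rats in the same way. It was 10.65, 4.80 and 9.67 in control, 10.35, 11.95 and 11.74 with CS + LPS, 11.75, 11.53 and 10.98 with NaHS, and 10.78, 5.32 and 5.06 with PPG. The same 3 rats were low, and its Pearson's r with RT1-CE10 over the 12 arrays was 0.997. It was DE at −4.29 against CS + LPS and −4.37 against NaHS, while the most intense probe of RT1-CE5 differed by 0.38 and 0.26 and was 14.53, 14.77 and 13.62 in control and 14.56, 15.05 and 14.84 with PPG. The probes of 1 symbol thus disagreed in direction, and which RT1 copies each of them reads is unknown here.

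RT1-N1 was 10.08, 8.86 and 10.003 in control, 9.87, 11.01 and 10.76 with CS + LPS, 11.03, 10.92 and 10.56 with NaHS, and 10.26, 9.51 and 8.84 with PPG. RT1-N2, its neighbour in name, was 10.73, 10.22 and 11.02, then 10.47, 11.34 and 10.96, then 11.30, 11.17 and 10.99, then 10.74, 10.57 and 10.17 in the same order. In both genes control rat 2 was the lowest control and PPG rat 3 the lowest PPG rat, and both of these rats were also on the low level of RT1-CE10. RT1-N1 differed by −1.01 (adjusted p 0.443) from CS + LPS and by −1.30 (adjusted p 0.563) from NaHS, and RT1-N2 by −0.42 and −0.66.

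These opposite orders showed in the correlations over the 12 arrays, which are given as a description since the points share treatment, slide and, for some probes, perhaps target copies. RT1-CE14 and RT1-CE3 had a Pearson's r of 0.990, RT1-CE16 and RT1-CE15 of 0.989, RT1-CE10 and RT1-CE4 of −0.852, and RT1-N1 and RT1-CE4 of −0.865. In the RefSeq gene order of chromosome 20, RT1-CE16, RT1-CE15, RT1-CE14, RT1-CE11, RT1-CE4 and RT1-CE3 stand at places 335, 337, 343, 350, 361 and 371. RT1-CE10, with the opposite order, stands between them at place 354. Per the deposited lists, which name no build beside the rn4 of the array grid, the probes lie on chromosome 20 at 3554679 to 3554738 (minus strand) for RT1-CE3, at 3537162 to 3537348 (minus strand) for RT1-CE4 and at 2788743 to 2788802 (plus strand) for RT1-N1, and those of RT1-CE11, RT1-CE14, RT1-CE15 and RT1-CE16 lie on sequence not placed on the chromosome.

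**Figure D4:**
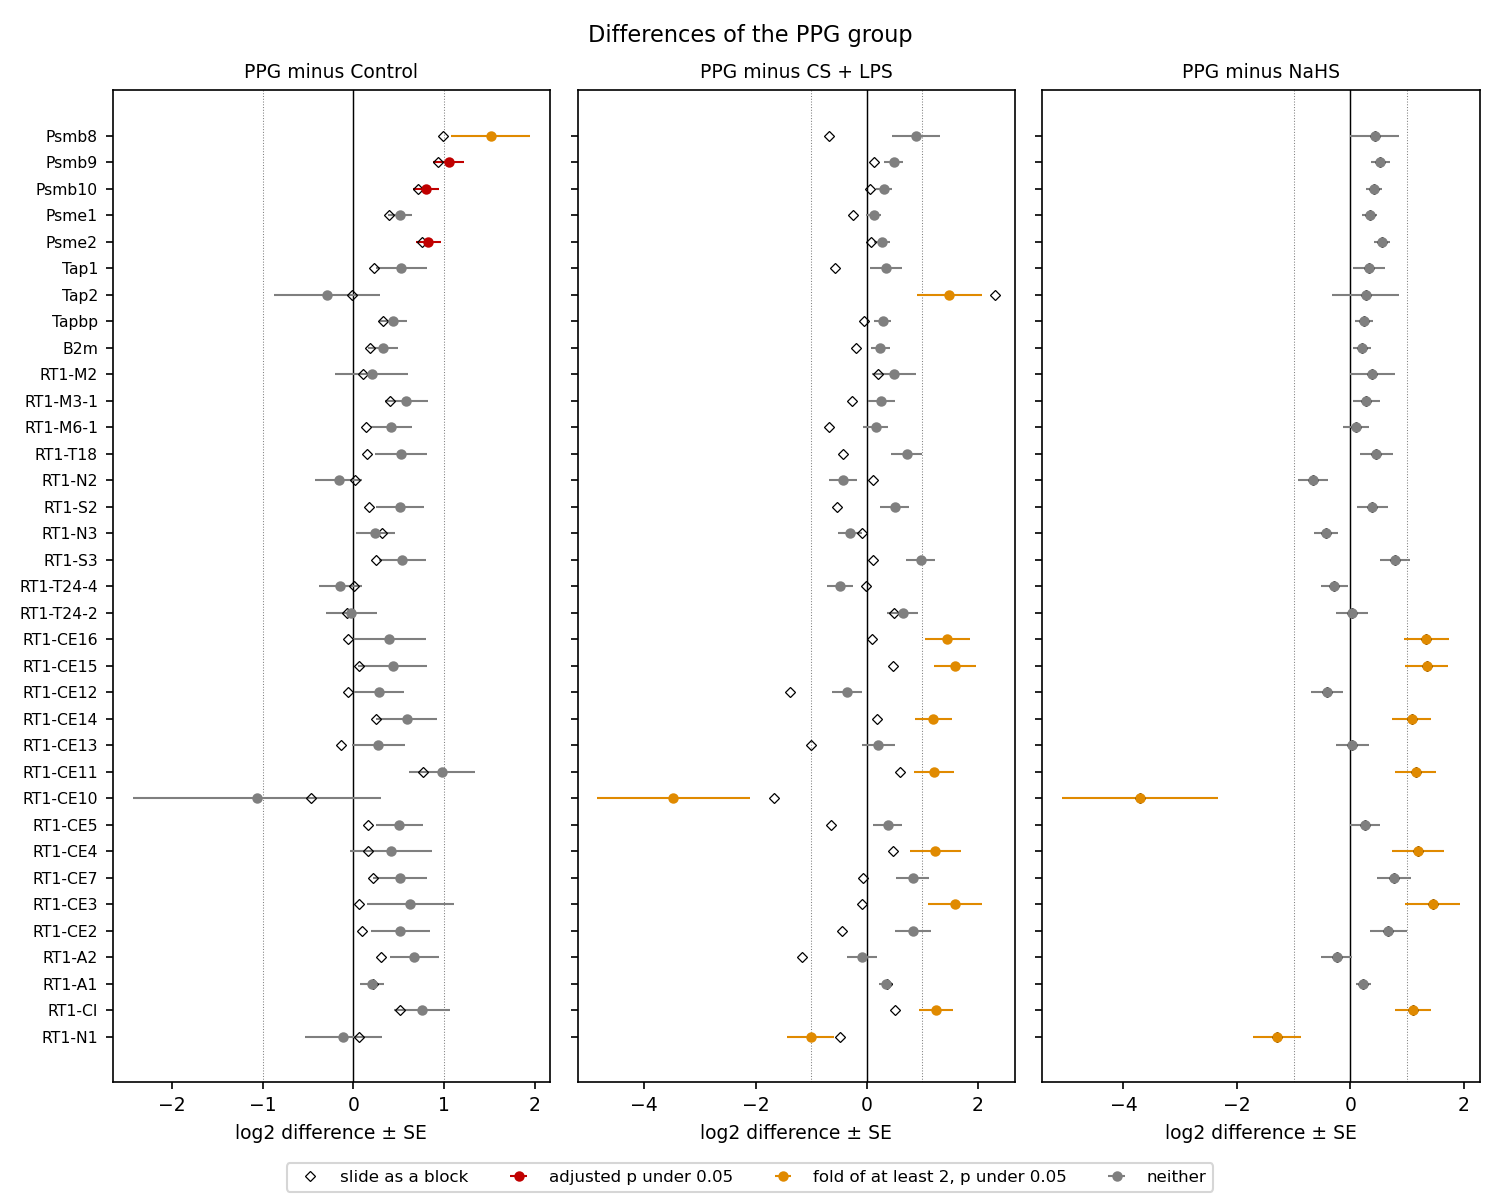
Log2 difference of the PPG group from each other group for the 35 genes, with bars of 1 SE from limma. Red marks an adjusted p under 0.05, orange a fold of at least 2 with an unadjusted p under 0.05, and open diamonds the difference with the slide as a block. Psmb9, Psmb10 and Psme2 are red against control, and in the middle panel the diamonds of RT1-CE3 and RT1-CE16 lie near 0.

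The difference from NaHS is free of the slide, and the difference from CS + LPS is not. Between PPG and CS + LPS, with the slide as a block, RT1-CE3 went from 1.58 to −0.0899, RT1-CE16 from 1.45 to 0.09, RT1-CE14 from 1.20 to 0.19, RT1-Cl from 1.25 to 0.52 and RT1-CE15 from 1.58 to 0.47. In that fit 3 genes were DE, against 19.4% of all probes, and 3 were called, RT1-A2 (−1.17), RT1-CE12 (−1.39) and RT1-CE13 (−1.01), all lower with PPG, against 22.6% of all probes called. That fit rests on control rat 3 alone. Without control rat 3 and without the block, RT1-CE15 (adjusted p 0.0471), RT1-CE16 (0.0498) and RT1-S3 (0.0445) were called higher with PPG, against 1.33% of all probes called. Without CS + LPS rat 3 there were 6 DE genes (1.81% of all probes), and without PPG rat 2 there were 5 (2.19%).

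Against NaHS, within the shared slide, the differences are those given above. The count of DE genes was 9, against 0.523% of all probes. It was 5 without NaHS rat 1 (0.612%) or NaHS rat 2 (0.556%) and 3 without PPG rat 2 (0.612%). Fitted on that slide alone, the adjusted p of the 9 genes was 0.220 to 0.266. The groups did not overlap in 19 of the 35 genes (54.3%), against 25.2% of all probes, and in 18 of the 35 (51.4%) against CS + LPS, beside 19.1% of all probes. Among these were Psmb9, Psmb10 and Psme2 in both comparisons. PPG was above NaHS by 0.53 in Psmb9, 0.41 in Psmb10, 0.55 in Psme2 and 0.34 in Psme1, none of which passed the adjusted threshold.

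The probes of the classical gene RT1-A1 differed in the size of their differences. Its most intense probe was 16.84, 16.61 and 16.74 in control, 16.46, 16.68 and 16.62 with CS + LPS, 16.70, 16.65 and 16.79 with NaHS, and 16.82, 17.15 and 16.83 with PPG. Its second probe was 15.35, 15.72 and 14.51, then 14.62, 14.44 and 14.33, then 14.40, 14.26 and 14.91, then 15.41, 15.98 and 15.23. PPG rat 2 was the highest in both, but the first probe differed by 0.35 from CS + LPS and 0.23 from NaHS, and the second by 1.08 and 1.02 and was DE in both. The second probe had a Pearson's r of 0.989 with RT1-CE16.

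RT1 genes more often had a range over 1 log2 unit among rats of the same group, but not a range over 2. The range within a group exceeded 1 log2 unit in at least 1 group for 19 of the 26 RT1 genes (73.1%), against 31.8% of all probes and 2 of the 9 listed genes (22.2%). A range over 2 was found in 1 of the 26 RT1 genes (3.85%), against 6.56% of all probes and 1 of the 9 listed genes (11.1%). Without control rat 3 the count with a range over 1 was 7 of 26 (26.9%), against 16.5% of all probes. The 7 were RT1-CE10 (5.18), RT1-M2 (1.65), RT1-CE4 (1.5), RT1-N1 (1.42), RT1-CE3 (1.27), RT1-CE11 (1.22) and RT1-CE15 (1.06), with the widest range within a group in brackets. The median residual SD was 0.389 for RT1 genes, 0.189 for listed genes and 0.256 for all probes. RT1-M2, a dim probe, was 6.82, 6.38 and 6.32 in control and 5.92, 6.65 and 7.57 with PPG and the groups overlapped.

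Genes that act beside class I presentation were taken from lists of fixed symbols. Of 14 interferon-induced genes, all 14 had a higher mean in PPG than in control, with a median difference of 1.23. Called higher by limma were 4 (Cxcl10, Gbp2, Gbp5 and Isg15), against 2.61% of all probes, and 9 were DE higher, against 2.32%. The median of the list was 1.05 against CS + LPS, with 7 genes DE higher beside 1.78% of all probes. Against NaHS it was 0.91, with 6 genes DE higher beside 0.32% of all probes. The median against control was 0.12 for CS + LPS and 0.27 for NaHS. As with the immunoproteasome genes, none of these 4 calls held without any 1 of the PPG rats (adjusted p 0.0532 to 0.133). Of the fits that leave out 1 rat, Isg15 was called only in those without control rat 2 or CS + LPS rat 1, with an adjusted p of 0.0557 to 0.133 in the others.

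Cxcl10, a chemokine that draws T and NK cells, was 7.76, 7.26 and 7.28 in control, 7.62, 8.35 and 8.04 with CS + LPS, 7.79, 8.41 and 7.87 with NaHS, and 9.12, 8.81 and 10.05 with PPG. Every PPG rat lay above every other rat, and PPG minus control was 1.90 (SE 0.32, adjusted p 0.0211 by limma). Gbp2, an interferon-induced guanylate-binding protein, was 13.09, 13.34 and 12.92 in control, 13.56, 14.09 and 14.00 with CS + LPS, 13.74, 13.51 and 13.81 with NaHS, and 14.23, 14.52 and 14.21 with PPG. The order of the groups was that of Psmb9, and PPG minus control was 1.20 (adjusted p 0.0206). Gbp5, of the same family, was higher by 1.28 (adjusted p 0.0225) and Isg15, a ubiquitin-like protein, by 1.70 (adjusted p 0.0484).

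Ciita, the class II master regulator, differed by 0.04 between PPG and control. Of 12 detected partners of the loading complex and constitutive proteasome genes (13 were listed), 1 was called, Npepps, a cytosolic aminopeptidase, which was 12.63, 12.60 and 12.68 in control and 11.98, 12.00 and 12.11 with PPG and fell by 0.60 (adjusted p 0.0427). Within the slide it differed by −0.58 (0.0727), and of the fits that leave out 1 rat it was called only in those without control rat 2 or NaHS rat 1, with an adjusted p of 0.0533 to 0.118 in the others. The median of that list was 0.03. Between PPG and control, 4.64% of all probes were called in either direction and 2.32% were DE higher. Of 11 detected receptors of class I molecules and killer cell effectors (12 were listed), 0 were called by limma. An unadjusted p under 0.05 was found in 6 of them, beside 6229 of all 21239 probes. All 11 had a higher mean in PPG with a median of 0.74, and Nkg7 was DE (1.24, adjusted p 0.0600).

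Markers of some immune cells also differed between PPG and control, where 2.61% of all probes were called higher and 2.32% were DE higher. Of 8 T cell markers 0 were called and 3 were DE (median difference 0.72), of 6 NK cell markers 0 were called and 3 were DE (1.11), of 5 B cell markers Ms4a1 was called (0.71), of 5 detected macrophage markers Cd68 and Msr1 were called (1.19), and of 6 detected neutrophil markers Fcnb and Mpo were called (1.24). Against control, the medians of the T cell, NK cell, B cell, macrophage and neutrophil lists were 0.67, 0.49, 1.07, 1.03 and 0.80 with CS + LPS, where 1 B cell, 1 macrophage and 1 neutrophil marker were called, and 0.70, 0.99, 1.16, 0.90 and 0.94 with NaHS, where 0 were called. Of all probes, 2.02% were called with CS + LPS and 0.0989% with NaHS against control. With PPG, 1 of the 8 T cell markers (−0.11) and 1 of the 5 macrophage markers (−0.60) had a lower mean than control. This held for 0 of the NK cell, B cell and neutrophil markers. With CS + LPS, 1 macrophage marker was DE lower than control (−1.39) and 3 were DE higher, against 4.56% of all probes DE. No marker of these lists was at 0, but Marco (macrophage) and Elane (neutrophil) had no detected probe. The dendritic cell list had 3 of 6 markers, without Itgax, Flt3 and Xcr1, and 0 called. None of the called markers kept an adjusted p under 0.05 without any 1 of the PPG rats. Of the fits that leave out 1 rat, Mpo was called only in that without control rat 2. By limma its difference was 0.27 (adjusted p 0.241) with another background correction (normexp) and 1.40 (0.0767) after quantile normalization. With the slide as a block Mpo (0.0535), Fcnb (0.0812) and Msr1 (0.0723) were not called, while Ms4a1 (0.0272) and Cd68 (0.0401) were.

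The summed signal of the T cell markers spanned 10972 to 11540 with PPG and 2728 to 10098 in control, beside 8141 to 9842 with NaHS and 6961 to 12534 with CS + LPS. That of the NK cell markers spanned 26549 to 32756, 7403 to 23577, 23047 to 37300 and 18544 to 28176 in the same order. Macrophage markers summed to 4840 to 8989 in control and to 14089 to 20680 over the 9 exposed rats, and neutrophil markers to 7741 to 18995 in control and 25247 to 35444 with PPG. The lowest single value of each of these 4 sums was that of a control rat, as for the immunoproteasome genes, and their part in the result was not tested. Between PPG and NaHS the medians were 0.09 for T cell, 0.29 for NK cell, 0.28 for macrophage, 0.26 for neutrophil and −0.39 for B cell markers, with 0 called in every list.

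Markers of other tissues were present in some lobes. The summed signal of heart muscle markers spanned 27264 to 48317 with PPG, 516 to 68532 in control, 481 to 36930 with NaHS and 3319 to 35637 with CS + LPS. All 4 detected heart markers of 5 listed had a higher mean with PPG than in each other group. The medians were 4.04 against control, 2.01 against CS + LPS and 2.73 against NaHS, and 0 were called. DE higher were 1 against control (2.32% of all probes), 1 against CS + LPS (1.78%) and 0 against NaHS (0.32%). The 3 detected fat markers of 5 listed (Adipoq, Cfd and Fabp4, without Plin1 and Lep) had a summed signal of 9479 to 13177 with PPG, above the 4720 to 7157 with CS + LPS and the 5378 to 7669 with NaHS, and of 3583 to 13066 in control. All 3 had a higher mean with PPG than in each other group, with medians of 1.11 against control, 1.19 against CS + LPS and 1.20 against NaHS, and 0 were called. Endothelial Pecam1 and Cel of the pancreas were called lower with PPG than control. Lamp3 of the alveolar type 2 cells and Scgb3a1 of the airway were called higher. These were the single calls of their lists, whose means were higher with PPG in 2 of 5 endothelial and 3 of 4 pancreas markers. The same held for 3 of 6 alveolar type 2 and 3 of 6 airway markers. The medians of the 4 lists in this order were −0.32, 0.58, 0.13 and −0.22. The part of these tissues in the differences of class I genes was not tested.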

How the data were processed

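Per the labels, lung RNA of 12 rats was measured, 1 array per rat, in 4 groups. The authors deposited the Feature Extraction 10.7 output of each array, whose processed signal is an intensity from which background was already taken, and lists of DE probes made in GeneSpring. These lists of the authors also hold log2 signals, fold changes and p-values, of which 60 columns were not used here.

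Spots marked as outliers were dropped and processed signals were put on the log2 scale, averaged per probe and aligned between arrays at their 75th percentile over probes. A probe counted as detected where at least a share of 0.5 of its spots was well above background in all 3 rats of a group. Gene symbols were looked up by accession in RefSeq (GRCr8) or, for 3 members, in the authors' lists. The linear model of limma 3.58.1 (R 4.3.3, data.table version 1.17.8) was fitted to all 12 arrays and 21239 probes, 6 comparisons were read from it, and p-values were adjusted by Benjamini-Hochberg over all probes. The methods' t-test is the unpaired test named in the study, on the same values. Promoter sequences were read from the RefSeq table with Python 3.11.15, and the fit was tested on simulated data with known changes. The precision is limited by 3 arrays per group.

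The members and lists were chosen with earlier results of these data known. Named are the listed genes, every RT1 gene that was called or DE in any comparison, the RT1 genes with the widest range over the arrays, probes of a gene that disagree, and list genes called against control. RT1-N2, RT1-S3, RT1-A1, RT1-A2, RT1-CE5, RT1-CE12, RT1-CE13, RT1-M6-1 and RT1-S2 were named after their values were seen. Alternatives were another scaling, background correction, filter, probe per gene, test or set of samples, and slide or replicate blocks. The counts of a further list, of regulators of interferon signalling and class I genes, are not reported here.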

Additional observations from a re-analysis of the deposited data

How the results depend on the processing

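Among the recomputed counts of called or DE genes and of the spread, 268 stayed within 1.5 times their value, 21 were larger and 23 smaller. Among the recomputed differences of single genes, 586 kept direction and side of the threshold, 101 missed it and 1 reversed. The gene that reversed was RT1-CE3, at −0.0899 between PPG and CS + LPS with the slide as a block. With the slide as a block, called genes were 12 for CS + LPS against control, 4 for NaHS against CS + LPS and 3 for PPG against CS + LPS, and DE genes were 4 for NaHS against control, 0 for PPG against control, 4 for NaHS against CS + LPS and 3 for PPG against CS + LPS. With slide 1 alone, 4 genes were DE with NaHS and 0 with PPG against control, and with slide 2 alone 2 were called with CS + LPS. Between PPG and control, 1 gene was DE after quantile normalization (4.74% of all probes), and 1 was called with no filter on dim probes (0.366%). When only the arrays of the groups compared were fitted, 0 genes and 0 of all probes were called. The methods' t-test also called 0 of both, with 1 gene DE (2.34% of all probes). By the same t-test 0 genes were DE with CS + LPS (2.09% of all probes) and 1 with NaHS (1.31%) against control. For CS + LPS against control, normexp background correction called 2 genes, against 4.14% of all probes. The mean of all probes of a gene called 1, against 3.77% of all 11331 gene symbols. Normexp moved the median over all probes to −0.14 (CS + LPS), −0.10 (NaHS) and −0.09 (PPG) against control. Normexp was run on the median spot signal.

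Without single rats, called genes ranged from 0 to 1 (CS + LPS), 0 to 0 (NaHS) and 0 to 5 (PPG) against control, 0 to 1 for NaHS and 0 to 3 for PPG against CS + LPS, and 0 to 0 for PPG against NaHS. DE genes ranged in the same order from 1 to 5, 0 to 5, 0 to 4, 0 to 1, 5 to 11 and 3 to 10, and RT1 genes with a wide spread from 7 to 19. The shares of all probes moved as well. For CS + LPS against control, the share DE went from 2.88% to 8.43% and the share called from 0.137% to 6.10%. For PPG against control, the share called went from 0.0565% to 7.84%. A lone control rat in the block fits is assumed to vary like the other groups.

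Replicate numbers did not pair the rats. Same-numbered rats of different groups had correlations of their deviations from the group means of −0.31 to 0.14 (median −0.10, 18 pairs), and 2 of the pairs were over 0.1. With the replicate block, 0 genes were called between PPG and control (0.151% of all probes), and 1 was DE between NaHS and CS + LPS (1.71%).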

Other observations

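A further class I probe, annotated as Rt1.aa and so outside the rule on spelling, was 14.38, 14.46 and 13.20 in control, 14.01, 12.71 and 12.67 with CS + LPS, 12.68, 12.78 and 14.32 with NaHS, and 14.43, 15.29 and 14.84 with PPG. CS + LPS rats 2 and 3 and NaHS rats 1 and 2 were the low rats, as in RT1-CE4. PPG was higher by 1.72 (SE 0.52, adjusted p 0.245 by limma) than CS + LPS and by 1.59 (adjusted p 0.563) than NaHS, with a fold over 2 and an unadjusted p under 0.05 in both. The probe was singled out after its values were seen.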
